A study of Mus musculus with 10 samples.

Results

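The set holds 10 genes of the Notch pathway, described across the cells of the developing mouse lower incisor: the receptors *Notch1*, *Notch2* and *Notch3*, the ligands *Jag1*, *Jag2* and *Dll1*, the targets *Hes1*, *Hey1* and *Heyl*, and *Lfng*, which modifies the receptors. They were chosen by symbol, and all were found among the 32285 genes of each count matrix. The study dissected wild type NMRI mouse embryos, for which the labels name no transgene and no treatment, and took whole mandibles at E11.5 and the buds of the incisor at both later stages (E14.5, E16.5), while the labels call the tissue of all stages developing incisor. The labels list 4, 4 and 2 samples for these stages, from 2 or 3 litters a stage according to the methods, but a barcode carries no mark of its sample, embryo or litter. Each stage was therefore 1 pooled sample, no test was made, and stage, dissection and litter cannot be told apart.

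Notch receptors are membrane proteins that are cut after binding a Jagged or Delta ligand on a neighbouring cell, which releases an intracellular fragment that enters the nucleus and, with the DNA-binding protein RBPJ, switches on target genes such as those of the Hes and Hey families. Fringe enzymes, *Lfng* among them, add sugars to the receptors and thereby alter which ligands they answer to. In developing vessels the pathway is known for its role in arteries and in the choice between tip and stalk cells, and in teeth for the layers of the enamel organ and their ameloblasts.

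The libraries were 10x Genomics 3' libraries of polyadenylated RNA, in which each count is a UMI (unique molecular identifier, a tag of a captured RNA molecule). Cells were kept where they had 700 genes or more and no more than 20% mitochondrial UMIs, which left 6573, 6091 and 4511 cells at the successive stages, with a median of 3471 to 6260 UMIs per cell. The stages shared 13 to 17 cell barcodes in pairs. *Ddx3y*, a Y-linked gene, had 0 UMIs at E11.5 against 588 and 720 later, and *Xist*, a gene of female cells, had 46312, 34968 and 28142. Male cells were thus not detected at E11.5, and sex cannot be told apart from stage between E11.5 and the later stages. The unit of a level is CPM, a gene's UMIs per 1000000 UMIs of a group after adding up its cells. Counts were not scaled by gene length, since a 3' library gives a tag per molecule. Ranges in parentheses are 95% intervals (exact Poisson for levels, exact binomial for ratios, Clopper-Pearson for shares). They cover counting error only, and no spread between embryos is in them.

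Of the 10 genes, 7 had a promoter sequence in the RefSeq table (8 start sites, GRCm38.p6). The targets *Hes1*, *Hey1* and *Heyl* had none there, so they were not searched. The 250 bases before the start were searched on both strands for TGGGAA, the core letters bound by RBPJ, and for the E-box CACGTG. Of these 7 genes, only *Lfng* held either motif, so its promoter is shown for its motifs, and the *Notch2* promoter is shown because that receptor was higher in E16.5 than in E14.5 epithelium and most so in a sub-cluster of it. Capitals mark the motifs, and both sequences read 5′ to 3′ on the plus strand towards the start site.
*Lfng*, chr5:140607091-140607340: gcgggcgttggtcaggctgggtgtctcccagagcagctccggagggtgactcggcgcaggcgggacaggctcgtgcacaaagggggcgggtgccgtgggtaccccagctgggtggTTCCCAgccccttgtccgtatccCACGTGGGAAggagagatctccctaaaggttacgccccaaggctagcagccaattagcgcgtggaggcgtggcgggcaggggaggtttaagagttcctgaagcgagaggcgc
*Notch2*, chr3:98013288-98013537: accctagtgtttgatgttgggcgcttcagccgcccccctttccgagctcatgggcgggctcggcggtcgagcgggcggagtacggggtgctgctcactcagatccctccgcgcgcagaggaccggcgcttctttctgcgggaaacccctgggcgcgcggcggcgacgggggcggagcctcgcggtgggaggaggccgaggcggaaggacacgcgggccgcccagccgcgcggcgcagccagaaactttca
Counted back from the start, TGGGAA lay on the opposite strand at -135 to -130 and on the same strand at -108 to -103. CACGTG lay at -112 to -107 and overlapped the latter. TGGGAA was present in 21.6% of the 32851 promoters of the table, CACGTG in 6.02%, and the overlapping CACGTGGGAA in 24 promoters (0.0731%). These are matches of letters and say nothing about binding. In GENCODE vM21 on the same build, *Lfng* spans 140607320 to 140615545 of chromosome 5 and *Notch2* spans 98013527 to 98150361 of chromosome 3, both on the plus strand, so that each printed window runs a few bases into the gene's span.

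Cells of each stage were clustered without the 10 genes and 38 other Notch pathway genes, and each cluster took its name from marker lists. Endothelium held 58 cells at the earliest stage, then 163 and 122, and all 10 endothelial markers were detected at each stage, at 3947, 4701 and 5044 CPM in sum. Epithelium held 993 E14.5 cells and 1762 E16.5 cells, with summed epithelial markers at 1681 and 2262 CPM. No E11.5 cluster scored as epithelium, and 4 cells had UMIs of at least 3 of 5 epithelial markers. Mesenchyme, the largest class, held 5308, 4617 and 2530 cells.

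Erythroid cells served as a gauge of free RNA, since RNA released from other cells gives UMIs in droplets of cells that do not express a gene. Globins took 33.2% to 38.8% of their UMIs, which lowers the CPM of every other gene. At E14.5 the erythroid cells also carried mesenchymal markers at 1576 CPM, against 3680 CPM in mesenchyme, and their levels of *Notch2*, *Jag1*, *Hes1* and *Hey1* were 43.5, 31.2, 103 and 27.9 CPM. Immune cells of that stage, with mesenchymal markers at 240 CPM, had 21.7, 7.22, 34.1 and 3.10 CPM of the same genes. With globins left out of the total, the erythroid values of E14.5 were 69.7, 50.1, 165 and 44.7 CPM. The erythroid cells of E14.5 thus held mesenchymal RNA beyond that of immune cells. A level of these 4 genes near the erythroid value is therefore not told apart from this gauge, which does not make it background. At E16.5 the erythroid cells carried epithelial markers at 599 CPM, against 2262 CPM in epithelium and 143 CPM in immune cells. They also carried mesenchymal markers at 1196 CPM. A level near this gauge thus does not show that a lineage lacks the gene. Relative to erythroid cells, *Notch1*, *Jag2* and *Hes1* were higher beyond counting error in endothelium at all 3 stages and in epithelium at both stages. With globins left out of the totals of both groups, an alternative added after the data were seen, this no longer held for endothelial *Jag2* at E14.5, epithelial *Notch1* at E14.5 and epithelial *Hes1* at E16.5, and epithelial *Notch1* at E16.5 passed narrowly (34.7 against 14.7 CPM).

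**Figure D1:**
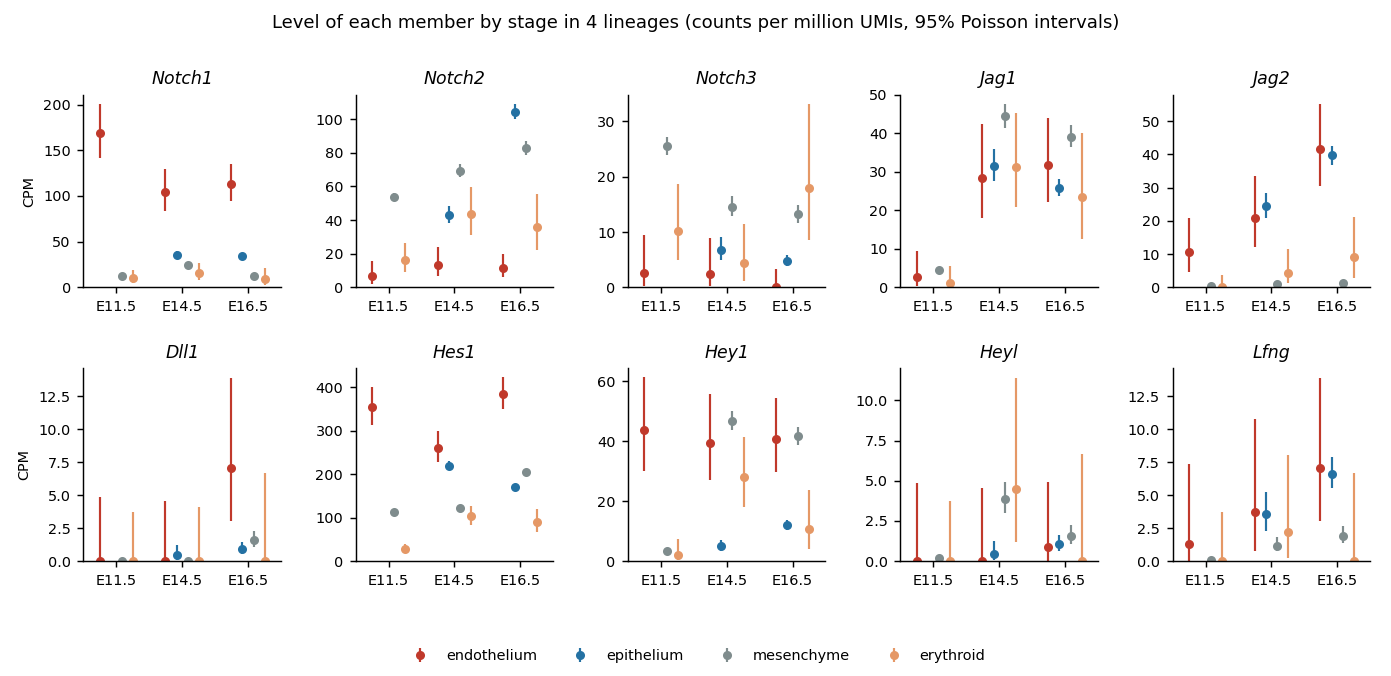
Level of each of the 10 genes (CPM, y axis, from 0) by stage (x axis, E11.5 to E16.5) in endothelium, epithelium, mesenchyme and erythroid cells, as points with 95% Poisson intervals from summed counts. *Notch1* was highest in endothelium at each stage (105 to 169 CPM), *Jag2* stood above mesenchyme in both endothelium and epithelium, and *Notch2* reached its highest lineage level in E16.5 epithelium (105 CPM).

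At each stage endothelium had the highest *Notch1* level of the named lineages. Its level was 169 CPM (141 to 201) at E11.5, and the values that followed were 105 (83.5 to 129) and 113 (94.3 to 134). Mesenchyme had 12.5, 24.2 and 12.1 CPM, and erythroid cells 10.1, 15.6 and 9.02. The intervals of endothelium and these groups overlapped at no stage, and the fold over mesenchyme was 13.6 (11.05 to 16.53), 4.33 (3.39 to 5.47) and 9.32 (7.44 to 11.6). Cells were also thinned to 2000 UMIs each, and cells with fewer were left out (3, 34 and 6 endothelial cells). Of the endothelial cells that remained, 30.9%, 17.8% and 21.6% had a *Notch1* UMI, against 0.826%, 3.50% and 2.27% of erythroid cells. Globins take part of the 2000 UMIs of an erythroid cell, which lowers the erythroid shares. The median depth before thinning was 8405, 3515 and 6474 UMIs in endothelial cells and 5628, 5857 and 11352.5 in erythroid cells. At E11.5, where 1 cell held 22 of the 128 *Notch1* UMIs, the level without that cell was 148 CPM. The endothelial interval overlapped those of glia at E14.5 (59.6 CPM, 31.7 to 102) and of mural cells at E16.5 (108 CPM).

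The other receptors showed the opposite order. *Notch2* in endothelium was 6.60, 13.5 and 11.48 CPM at the 3 stages, compared with 53.5, 69.3 and 82.6 CPM in mesenchyme, so that the endothelial level was 0.123 to 0.195 of the mesenchymal level. *Notch3*, the receptor of vascular smooth muscle and pericytes, had 2, 2 and 0 UMIs in endothelium at the successive stages, and a count of 0 at E16.5 allows up to 2.65 CPM if 3 counts are taken as the limit, and 3.26 CPM by the exact interval. Mesenchyme had 25.5, 14.6 and 13.2 CPM of *Notch3*. Mesenchymal *Notch2* was above erythroid cells beyond counting error at every stage, and mesenchymal *Notch3* at E11.5 and E14.5. Without globins this held only for *Notch2* at E11.5, and *Notch3* at E16.5 was below them (13.2 against 29.5 CPM). Together with *Notch4*, an endothelial receptor outside the 10 genes, the make-up of endothelial receptor UMIs was 60.4% to 68.8% *Notch1* and 22.2% to 33.5% *Notch4*, while *Notch2* made up 2.69% to 8.73%.

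Among the ligands, *Jag2* separated endothelium from mesenchyme. Endothelial *Jag2* was 10.6 (4.56 to 20.8), 20.9 (12.2 to 33.5) and 41.5 CPM (30.5 to 55.2) in order of age, against 0.474, 0.953 and 1.29 CPM in mesenchyme. The fold over mesenchyme was 22.3 (8.32 to 54.5), 22.0 (10.5 to 45.7) and 32.2 (19.3 to 55.1), on 8, 17 and 47 endothelial UMIs. *Jag1*, the other Jagged ligand, did not stand above mesenchyme: endothelium had 2.64, 28.3 and 31.8 CPM and mesenchyme 4.57, 44.4 and 39.1. Nor was endothelial *Jag1* above erythroid cells beyond counting error at any stage, though it was above immune cells at E14.5 and E16.5. *Dll1*, a Delta ligand, had 0 endothelial UMIs before E16.5 and 8 then, where 7.07 CPM (3.05 to 13.9) was 4.39 times the level of mesenchyme (1.74 to 9.80). *Dll4*, the main Delta ligand of vessels and not among the 10 genes, made up 75.0%, 39.4% and 38.9% of endothelial ligand UMIs.

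*Hes1*, a transcriptional repressor and target of the pathway, was 355 CPM (314 to 400), 261 (227 to 298) and 385 (350 to 423) in endothelium at the successive stages. Mesenchyme had 112, 123 and 204 CPM, and the fold was 3.16 (2.78 to 3.57), 2.13 (1.84 to 2.45) and 1.89 (1.71 to 2.09). *Hey1*, another repressor and target, was 43.6, 39.4 and 40.6 CPM in endothelium, levels whose intervals overlapped. At E14.5 the endothelial level was not above that of erythroid cells beyond counting error (27.9 CPM, or 44.7 CPM without globins). At E16.5 it was above theirs with globins (10.8 CPM) but not without them (17.7 CPM). Endothelial *Hey1* was above that of immune cells beyond counting error at each stage. Mesenchymal *Hey1* was 3.37 CPM at E11.5 and 46.6 and 41.6 CPM later, so the endothelial level was 12.9 times higher (8.51 to 19.1) at E11.5 and did not differ beyond counting error afterwards. *Heyl*, a relative of *Hey1*, had 0, 0 and 1 UMIs in endothelium. *Lfng* had 1, 3 and 8.

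Counting as called a gene that differed at least 2-fold, on the log2 ratio of CPM with 10 CPM added to both sides and at least 50 UMIs over both groups, 6 of the 10 genes could be compared between endothelium and mesenchyme at E11.5. Of these, 3 were higher in endothelium (*Notch1* at log2 2.99, *Hey1* at 2.002, *Hes1* at 1.58), where 6.99% of all 11745 genes compared were higher, and 2 were lower (*Notch2* at -1.93, *Notch3* at -1.49), where 5.69% of all genes were lower. At E14.5, 7 genes could be compared, 2 were higher (*Notch1* at 1.75, *Hes1* at 1.03) against 6.27% of all 10808 genes, and *Notch2* was lower (-1.75) against 5.97%. At E16.5, again of 7 genes, *Notch1* (2.48) and *Jag2* (2.19) were higher against 6.04% of all 11467 genes, and *Notch2* (-2.11) and *Notch3* (-1.21) were lower against 7.16%. The median log2 ratio of the genes compared was 0.69, -0.47 and -0.03 at the successive stages, and that of all genes was -0.12, -0.10 and -0.12.

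The 38 other pathway genes give the setting. In endothelium over mesenchyme, 3 of 27 compared were higher at E11.5, 4 of 26 at E14.5 and 6 of 30 at E16.5, and 1, 2 and 2 were lower. *Notch4* was higher at E11.5 (67.3 against 2.34 CPM) and at E16.5 (62.7 against 1.61 CPM). *Nrarp*, a target that dampens the signal, was 48.0 against 0.673 CPM at E14.5 and 70.7 against 0.698 CPM at E16.5. *Mfng*, a fringe enzyme, was 71.4 and 88.3 CPM at these stages, against 0.056 and 0.0537 CPM in mesenchyme. *Adam10*, the protease that makes the outer cut of the receptor, was higher at all 3 stages, with log2 ratios of 1.27, 1.37 and 1.37. The lower genes were *Dlk1*, a non-canonical ligand (log2 -3.03, -3.44 and -3.07), and *Numbl*, an endocytic adaptor (-1.12 at E14.5, and just past 2-fold at E16.5).

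Endothelial cells were then divided by 6 artery genes and 4 vein genes, each cell going to the side of which it had more genes detected, which put 14, 43 and 31 cells on the artery side and 30, 80 and 70 on the vein side. None of the 10 Notch genes was used for this. *Notch1* was 320 CPM (244 to 412) on the artery side and 102 (71.0 to 142) on the vein side at E11.5, 139 and 92.6 CPM at E14.5, and 229 (168 to 306) against 95.8 (73.9 to 122) at E16.5. The intervals did not overlap at E11.5 and E16.5, and the ratio at E14.5 included no difference (log2 0.54, -0.15 to 1.21). *Hey1* showed the widest gap as a fold: 29 of 33 endothelial UMIs at E11.5 were on the artery side, which gave 155 CPM (103 to 222) against 2.91 (0.0737 to 16.2), and the pair of values was 103 and 12.6 CPM at E14.5 and 200 and 4.42 CPM at E16.5. The intervals of *Hey1* on the artery and vein sides were apart at each stage, but they take each UMI as independent. Of the endothelial *Hey1* UMIs, 1 cell held 10 of 33 at E11.5, 4 of 32 at E14.5 and 9 of 46 at E16.5. Without that cell the level of all endothelium at E11.5 fell from 43.6 to 32.0 CPM.

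*Jag1* and *Jag2* also differed between the sides at some stages. *Jag1* was 61.9 CPM (32.0 to 108) on the artery side and 18.9 (8.66 to 36.0) on the vein side at E14.5, and 89.8 (53.2 to 142) against 23.6 (13.5 to 38.3) at E16.5. *Jag2* was 94.8 CPM (57.1 to 148) against 28.0 (16.9 to 43.7) at E16.5, while at E14.5 the order was the other way with overlapping intervals (10.3 and 21.0 CPM). *Hes1* was 538 CPM on the artery side against 245 on the vein side at E11.5, and 469 against 340 at E16.5, with 268 against 248 in between. The 8 *Dll1* UMIs of E16.5 fell on the vein side (7) and in cells of neither side (1).

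Of the 10 genes only *Notch1* and *Hes1* had at least 50 UMIs over both sides. Both were at least 2-fold higher on the artery side at E11.5, where 1.97% of all genes compared were, neither was at E14.5 (1.5%), and *Notch1* was at E16.5 (4.76%). Of the other pathway genes, *Notch4* (140 against 50.1 CPM) and *Nrarp* (165 against 50.1 CPM) were higher on the artery side at E16.5, and *Dll4* was 79.9 against 17.5, 61.9 against 21.0 and 130 against 33.9 CPM at the successive stages. Vein-side cells carried more haemoglobin RNA than artery-side cells at each stage (for E14.5, 20969 against 835 CPM of erythroid markers), and its part in these differences was not tested.

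**Figure D2:**
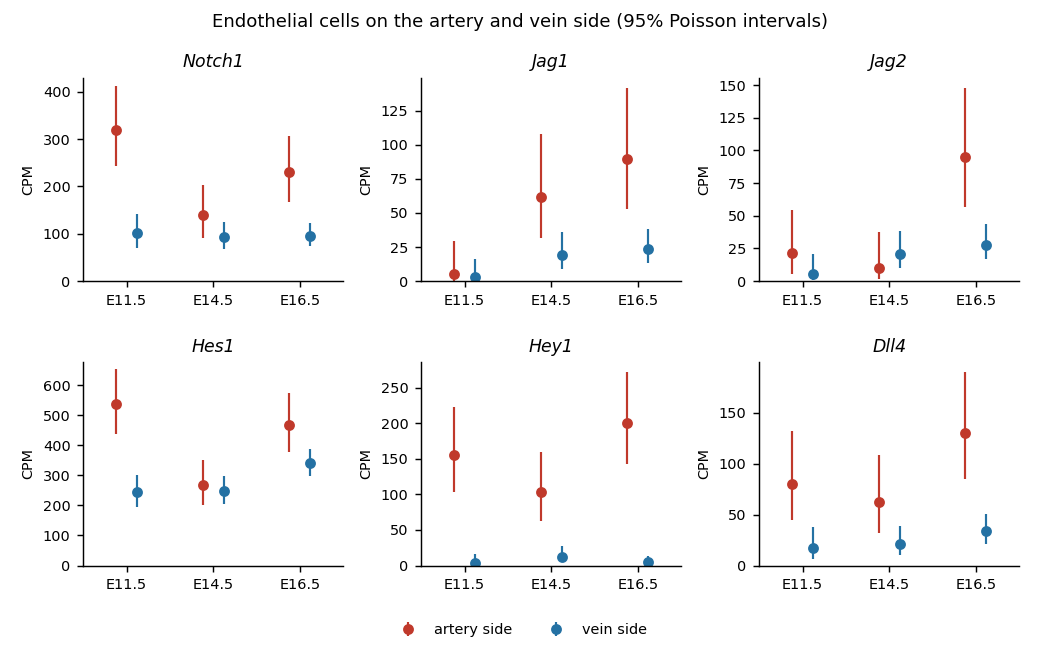
Levels (CPM, y axis, from 0) of *Notch1*, *Jag1*, *Jag2*, *Hes1*, *Hey1* and *Dll4* at each stage (x axis) in endothelial cells of the artery side and of the vein side, as points with 95% Poisson intervals. *Hey1* was 103 to 200 CPM on the artery side and 2.91 to 12.6 CPM on the vein side, and *Hes1* differed most at E11.5.

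Epithelium, like endothelium, was above mesenchyme in *Jag2* and, by less, in *Notch1*, at lower *Notch1* levels than endothelium. Its *Jag2* was 24.5 CPM (21.0 to 28.4) at the earlier stage (E14.5) and 39.7 (36.9 to 42.6) at the later (E16.5), against 0.953 and 1.29 CPM in mesenchyme, or 25.7-fold (15.6 to 45.1) and 30.8-fold (20.5 to 48.4) higher. Erythroid cells had 4.46 and 9.02 CPM of *Jag2*. *Notch1* was 35.6 CPM (31.3 to 40.3) and 34.7 (32.1 to 37.4), which was 1.47 times (1.26 to 1.72) and 2.86 times (2.45 to 3.34) the mesenchymal level. The wider gap at E16.5 came with a lower mesenchymal value, 12.1 against 24.2 CPM, while the epithelial values overlapped. Without globins, epithelial *Notch1* at E14.5 was not above that of erythroid cells beyond counting error (35.6 against 25.0 CPM).

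*Notch2* and *Hes1* changed places between epithelium and mesenchyme. *Notch2* was 43.1 CPM (38.4 to 48.3) in epithelium and 69.3 (65.5 to 73.2) in mesenchyme at E14.5, and 105 (100.1 to 109) against 82.6 (78.5 to 86.9) at E16.5. The E16.5 epithelial *Notch2* was concentrated in a sub-cluster described below, and the other epithelial cells had less of it than mesenchyme. The E14.5 epithelial value was not above that of erythroid cells (43.5 CPM, or 69.7 CPM without globins), whereas the E16.5 value was above theirs (36.1 CPM, 22.0 to 55.7) with and without globins. Both epithelial *Notch2* values were above those of immune cells beyond counting error (21.7 CPM in immune cells at E14.5). *Hes1* was 219 CPM (208 to 231) in epithelium against 123 (118 to 128) in mesenchyme at E14.5, and 171 (165 to 177) against 204 (198 to 211) at E16.5. For both genes the log2 ratio of epithelium over mesenchyme had opposite signs at the 2 stages, with each interval clear of 0. Without globins, mesenchymal *Notch2* was not above erythroid cells beyond counting error at either stage. *Hes1* without globins was below them in E14.5 mesenchyme (123 against 165 CPM) and not above them in E16.5 epithelium (171 against 147 CPM). It was above them in E14.5 epithelium (220 CPM) and E16.5 mesenchyme (204 CPM). Each ratio thus rests in part on a level not above the erythroid gauge.

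*Hey1* was lower in epithelium, at 4.98 CPM (3.47 to 6.93) against 46.6 at E14.5 and at 11.9 (10.4 to 13.6) against 41.6 at E16.5. Neither value was above that of erythroid cells (27.9 and 10.8 CPM) or of immune cells beyond counting error. The E14.5 value was below that of erythroid cells beyond counting error, and the E16.5 value is not told apart from theirs. Neither value is told apart from that of immune cells. *Jag1* was 31.6 and 25.8 CPM in epithelium, likewise not above erythroid cells beyond counting error (31.2 and 23.4 CPM). Against immune cells, epithelial *Jag1* was higher beyond counting error at E14.5 (7.22 CPM in immune cells) but not at E16.5. *Lfng*, at 3.56 CPM (2.30 to 5.25) and 6.63 (5.53 to 7.89), was 3.02 times (1.62 to 5.68) and 3.43 times (2.35 to 5.12) the level of mesenchyme, and its 127 UMIs of E16.5 lay in 6.53% of epithelial cells. Neither *Lfng* level was above that of erythroid cells beyond counting error. Theirs was 2.23 CPM at E14.5 (3.58 CPM without globins) and 0 CPM (up to 6.65) at E16.5. *Notch3*, *Dll1* and *Heyl* stayed under 7 CPM in epithelium at both stages.

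By the rule of 2-fold, 8 of the 10 genes could be compared between epithelium and mesenchyme at each stage. At E14.5 only *Jag2* was higher (log2 1.65), where 3.51% of all 11552 genes were, and only *Hey1* was lower (-1.92), where 4.04% were. At E16.5, *Jag2* (2.14) and *Notch1* (1.01) were higher, where 3.33% of all 12691 genes were, and *Hey1* was lower (-1.24), where 4.12% were. *Notch1* lay just past the threshold and was under it in 5 of the 11 alternatives given under the processing. Of the other pathway genes, *Hes6*, a Hes protein that opposes *Hes1*, was higher in epithelium at E14.5 (43.0 against 10.9 CPM), *Nrarp* at E16.5 (11.4 against 0.698 CPM), and *Dlk1* was lower at both stages.

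Between the stages, 1 of 8 genes compared in epithelium differed by 2-fold: *Notch2* was higher at E16.5, at log2 1.11 (0.96 to 1.26) or 2.43-fold (2.15 to 2.75), where 1.49% of all 11674 genes differed. Next came *Hey1* (0.55, 0.34 to 0.73), *Jag2* (0.53, 0.35 to 0.70) and *Hes1* (-0.34, -0.42 to -0.26). *Notch1* did not differ beyond counting error (-0.03, -0.20 to 0.14). Of 28 other pathway genes compared, 0 differed by 2-fold. The make-up of epithelial receptor UMIs moved from 49.9% *Notch2* and 41.2% *Notch1* at E14.5 to 71.9% and 23.8% at E16.5, and *Jag2* from 43.3% to 58.8% of ligand UMIs.

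**Figure D3:**
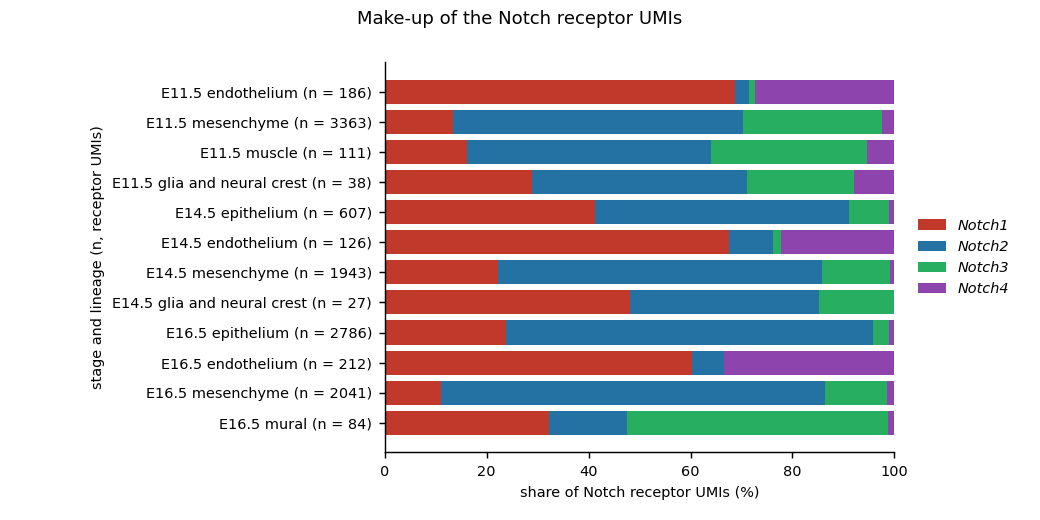
Share of Notch receptor UMIs (x axis, %, 0 to 100) that belonged to *Notch1*, *Notch2*, *Notch3* and *Notch4* in each stage and lineage (y axis, with the number of receptor UMIs), as stacked bars without error bars. *Notch1* and *Notch4* filled most of each endothelial bar, *Notch2* led in mesenchyme (57.0% to 75.4%) and in E16.5 epithelium (71.9%), and *Notch3* led in mural cells (51.2%).

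The *Notch2* of E16.5 epithelium was concentrated in a sub-cluster. When epithelial cells were clustered again, again without the Notch genes, 504 cells led by *Sparcl1*, *Maf*, *Ppargc1a*, *Angpt1* and *Nrxn3* had 291 CPM of *Notch2* (275 to 307), against 49.3 CPM in all other epithelial cells, or 5.90-fold. The other 3 sub-clusters had 48.9, 54.2 and 40.3 CPM, close to the erythroid level (36.1 CPM, or 58.9 CPM without globins). A *Notch2* UMI was found in 56.0% of the 504 cells. After thinning to 2000 UMIs, which left 421 of them, the share was 34.9%, against 6.29% to 9.03% of the other sub-clusters and 4.55% of erythroid cells. The sub-cluster was the shallowest, with a median of 4287.5 UMIs against 6676.5 to 8758.5. It also had the highest *Notch1* (61.1 CPM against 22.6 to 32.6) and *Jag1* (42.4 CPM against 12.0 to 31.4).

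At a finer resolution the *Notch2*-rich cells fell into several groups. The highest level, 335 CPM (312 to 358), was in 225 cells led by *Chchd10*, *Ppargc1a*, *Fat2*, *Krt15* and *Angpt1*, followed by 234 CPM (206 to 264) in 212 cells led by *Sorbs2* and 158 CPM (139 to 180) in 122 cells led by *Odam*, *Maf*, *Enpp2*, *Tagln* and *Krt75*. The *Odam* cells combined this with the highest *Notch1* (99.95 CPM, 84.6 to 117) and *Hes1* (479 CPM, 445 to 515) of E16.5 epithelium. The *Sorbs2* cells had the highest *Jag2* (92.9 CPM, 76.0 to 112) and *Jag1* (61.9 CPM), and they were shallow, with a median of 2498 UMIs. In 221 cells led by *Slc40a1*, *Stmn2* and *Ambn*, a gene of enamel matrix, *Jag2* came next at 64.5 CPM (55.1 to 75.1), beside a *Notch1* level of 15.9 (11.4 to 21.6) and a *Notch2* level of 56.3 CPM. *Hey1* ranged over these finer groups from 3.94 CPM (1.89 to 7.25) in the *Chchd10* cells to 25.8 CPM (18.4 to 35.3) in the *Odam* cells. In the coarser division *Lfng* was highest in 144 cells led by *Pcp4* and *Crabp1*, at 12.0 CPM (7.76 to 17.7) against 5.98 CPM in the other epithelial cells.

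A further group of 236 cells (13.4% of E16.5 epithelium) was led by *Prrx2*, *Col3a1* and other mesenchymal genes, with mesenchymal markers at 765 CPM beside epithelial markers at 1277 CPM. Its *Jag2* was 8.66 CPM and its *Notch2* 49.1 CPM. Nearly all of these cells (234) lay in the largest sub-cluster, which was led by histone genes. Leaving this group out, an alternative added after the data were seen, changed none of the counts of genes called in epithelium.

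At E14.5 the sub-cluster that stood out did so by *Hes1*. In 85 cells led by *Shh*, *Wif1*, *Fgf4*, *Thbs1* and *Fgf15*, signalling genes of the enamel knot among them, *Hes1* was 515 CPM (461 to 573), against 189 CPM in the other epithelial cells and 103 CPM in erythroid cells. The fold was 2.72, and the thinned share of cells with a *Hes1* UMI was 51.9% against 22.1% to 34.4% in the other sub-clusters. *Hes6* was 126 CPM against 34.5 CPM in the same cells, and *Mfng* 29.3 CPM (17.6 to 45.7) against at most 3.60 CPM in any other sub-cluster. *Notch1* there was 55.5 CPM (38.9 to 76.8), not above the 48.2 and 46.8 CPM of other sub-clusters beyond counting error, and *Notch2* was 26.2 CPM (15.3 to 41.95).

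*Notch2* at E14.5 was highest in 267 cells led by *Meis2*, *Krt15*, *Igfbp5*, *Dapl1* and *Krt6a*, at 75.8 CPM (63.7 to 89.6) against 31.8 CPM in the other epithelial cells and 69.7 CPM in erythroid cells without globins. The largest sub-cluster, 339 cells led by *Crabp1*, had the lowest values of *Notch1* (15.5 CPM), *Notch2* (23.1 CPM) and *Hes1* (132 CPM), of which *Notch1* equalled the erythroid level and *Notch2* was below it. The remaining 302 cells, led by *mt-Nd6* and haemoglobin genes and with a median of 3105.5 UMIs, had 39.0 CPM of *Jag2* (30.4 to 49.2), the highest of the stage.

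By the rule of 2-fold, 5 of the 10 genes could be compared between E14.5 sub-clusters and 8 between those of E16.5. The *Shh* sub-cluster had 1 higher (*Hes1*), where 3.22% of all 8548 genes were. The *Meis2* sub-cluster had 1 higher (*Notch2*), where 1.15% were, and the *Crabp1* sub-cluster had 3 lower (*Notch1*, *Notch2* and *Hes1*), where 2.91% were. The *mt-Nd6* sub-cluster had 0 of 5 called, where 4.23% were in either direction. At E16.5 the *Sparcl1* sub-cluster had 1 higher (*Notch2*), where 2.05% of all 11179 genes were, and each of the others had *Notch2* lower, where 0.868%, 1.55% and 2.08% were. Among the other pathway genes, *Hey2* was higher in the 144 E16.5 cells led by *Pcp4* and *Crabp1* (21.1 against 3.05 CPM).

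**Figure D4:**
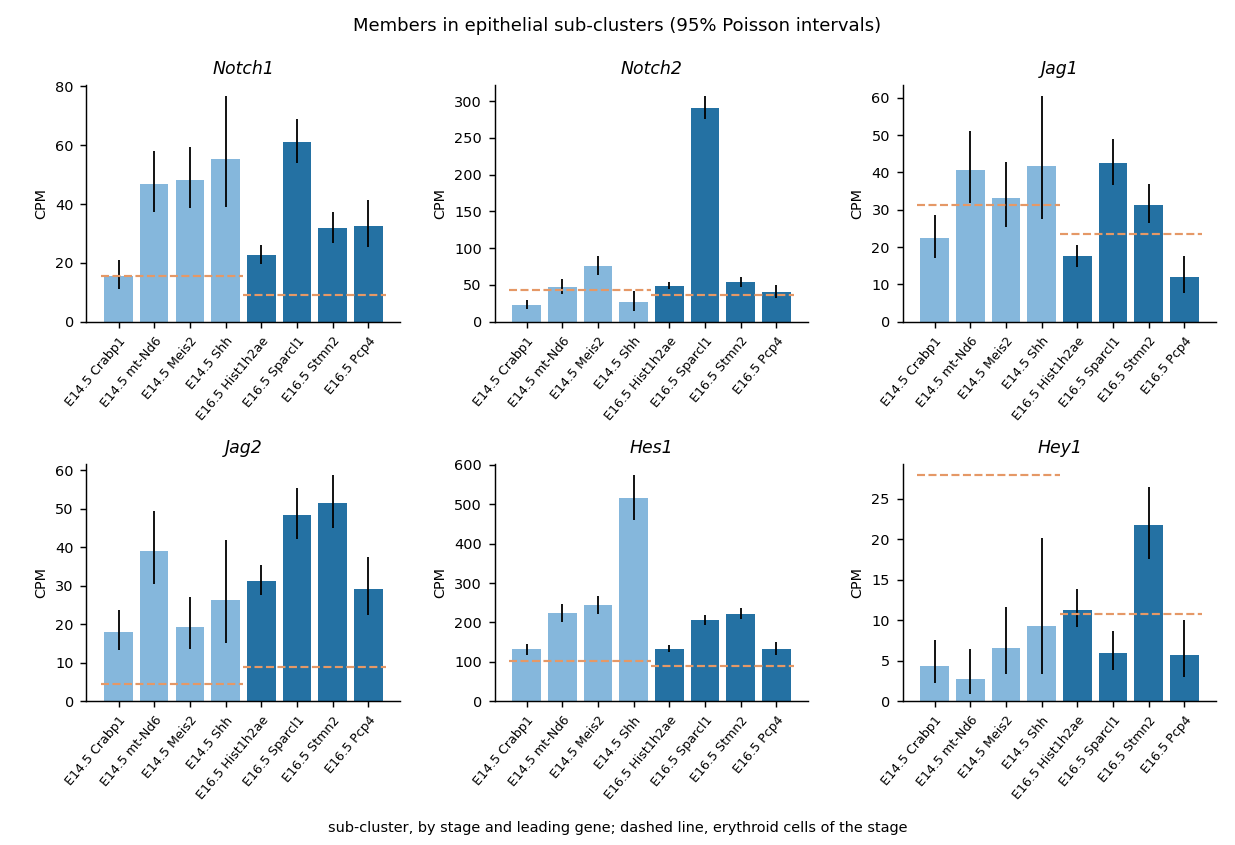
Levels (CPM, y axis, from 0) of 6 of the genes in the epithelial sub-clusters of E14.5 (light bars) and E16.5 (dark bars), each named by its leading gene on the x axis, with 95% Poisson intervals and the erythroid level of the stage as a dashed line. *Notch2* stood out in the E16.5 *Sparcl1* sub-cluster (291 CPM) and *Hes1* in the E14.5 *Shh* sub-cluster (515 CPM), while most *Hey1* bars lay at or under the dashed line.

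In mesenchyme most receptor UMIs were of *Notch2* and most ligand UMIs of *Jag1*. *Notch2* made up 57.0%, 63.6% and 75.4% of its receptor UMIs and *Jag1* 83.2%, 96.9% and 91.1% of its ligand UMIs at the successive stages. In the same order, *Jag1* was 4.57 (3.90 to 5.33), 44.4 (41.4 to 47.6) and 39.1 CPM (36.3 to 42.1), and *Hey1* was 3.37 (2.80 to 4.03), 46.6 (43.5 to 49.9) and 41.6 (38.7 to 44.6). Both were therefore higher by 9.72-fold and 13.8-fold at E14.5 than at E11.5, where the dissected tissue was the whole mandible. Erythroid cells moved alongside, from 1.01 to 31.2 CPM of *Jag1* and from 2.03 to 27.9 CPM of *Hey1*, and the part of background in the mesenchymal rise was not tested.

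Mesenchymal *Jag1* was not above the erythroid level beyond counting error at any stage, so it is not told apart from that gauge. Those above it were *Notch2*, *Notch3* and *Hey1* at E14.5 and *Notch2*, *Hes1* and *Hey1* at E16.5. Without globins, *Hes1* and *Hey1* were above it at E16.5 and none of the 10 genes at E14.5. How many of all genes passed the same comparison was not worked out, so these are values of single genes. Against immune cells, which held less mesenchymal RNA at E14.5, both *Jag1* and *Notch2* of mesenchyme were higher at E14.5 and E16.5.

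In mesenchyme, 7 of the 10 genes could be compared between E11.5 and E14.5, and 2 were higher at E14.5 (*Hey1* at log2 2.08, *Jag1* at 1.90), where 2.89% of all 12566 genes were. Between E14.5 and E16.5, 0 of 8 differed by 2-fold, where 1.58% of all 12241 genes did, and the widest differences were those of *Hes1* (0.69, 0.62 to 0.76) and *Notch1* (-0.63, -0.77 to -0.48). In endothelium 0 of 5 differed between E14.5 and E16.5, where 1.05% of all 4771 genes did, with *Jag2* at 0.74 (0.12 to 1.33) and *Hes1* at 0.55 (0.31 to 0.78). Between E11.5 and E14.5 endothelium 0 of 3 differed by 2-fold, where 4.21% of 4205 genes did.

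Within E14.5 mesenchyme *Hey1* varied more, as a fold, than *Notch2*, *Jag1* or *Hes1*. Across the 9 clusters it ranged from 6.52 CPM (2.98 to 12.4) in cells led by *Osr1*, *Ebf2* and *Ogn* to 80.2 (64.5 to 98.6) in cells led by *Pdzrn4* and *Igfbp5*, and it was 68.5 (62.6 to 74.9) in the largest cluster, led by *Crym*, *Dlx2* and *Egr3*. In the *Osr1* cells, by contrast, *Jag1* was 80.4 CPM (66.2 to 96.9), the highest of the stage beside 77.9 CPM in cells led by *Krt18* and *Slc1a3*, and in the *Crym* cells 30.1 (26.2 to 34.4). *Hes1* at that stage ran from 36.4 to 142 CPM. At E16.5, 158 cells led by *Fosb* and *Nr4a1*, genes of the immediate early response, had the highest *Hes1* (409 CPM, 371 to 450) and 92.9 CPM of *Hey1*, and 344 cells led by *Pdzrn4* and *Sfrp4* had the highest *Hey1* (97.1 CPM) and *Jag1* (82.6 CPM). Of the 30 mesenchymal *Dll1* UMIs of E16.5, 17 lay in the 550 cells led by *Ifitm5* and *Smpd3* and 8 in 117 cells led by *Plac8* and *Car2*.

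The small mural cluster of E16.5 (the pericytes and smooth muscle cells that wrap vessels) held 26 cells, with mural markers at 4641, mesenchymal markers at 2350 and endothelial markers at 123 CPM. *Notch3* was 171 CPM (124 to 231), *Jag1* 127 (87.2 to 180), *Hey1* 116 (77.4 to 166), *Notch1* 108 (70.9 to 156) and *Heyl* 83.7 (51.8 to 128). Of the 7 genes that could be compared with mesenchyme, these 5 were at least 2-fold higher, where 3.91% of all 11239 genes were. A *Notch3* UMI was found in 84.6% of the mural cells against 8.22% of mesenchyme and 0 of 122 endothelial cells, at median depths of 9149.5, 5914 and 6474 UMIs. The mural *Notch3* level was 64.6 times a floor of 3 counts over endothelium (2.65 CPM). That ratio is not a lower bound, since it leaves out the counting error of both levels. *Heyl*, at 53.7 times the level of mesenchyme (29.1 to 97.5), rested on 21 UMIs. *Jag1* (log2 1.72) and *Hey1* (1.31) were also higher than in endothelium, the 2 called of 4 genes compared, where 4.33% of all 3811 genes were.

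Muscle cells of E11.5 (120 cells) had more *Hes1* and *Hey1* than mesenchyme. *Hes1* was 291 CPM (260 to 326) against 112, and *Hey1* 19.7 (12.2 to 30.2) against 3.37, which were the 2 called of 6 genes compared, where 1.34% of all 11685 genes were higher. All 7 *Dll1* UMIs found in named cells of that stage were in muscle (6.58 CPM, 2.64 to 13.5), and none was among the 35858802 UMIs of mesenchyme. *Hes6* was also higher (60.1 against 16.4 CPM).

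Glia and neural crest cells, 76 at E11.5 and 44 at E14.5, were the place of *Heyl* outside the mural cells. *Heyl* was 28.0 CPM (13.97 to 50.1) and 22.9 (7.44 to 53.5), on 11 and 5 UMIs, against 0.195 and 3.87 CPM in mesenchyme. Without globins the E14.5 value was not above that of erythroid cells (7.15 CPM) beyond counting error. *Jag1* was 30.5 CPM (15.8 to 53.3) and 64.2 (35.1 to 108). Its E14.5 level was not above that of erythroid cells beyond counting error (31.2 CPM, or 50.1 CPM without globins). Compared with mesenchyme, *Jag1* was the 1 gene of 6 called higher at E11.5, where 2.9% of all 11638 genes were. At E14.5, *Heyl* (1.25) and *Notch1* (1.03) were called higher of 7, where 4.58% of all 10657 genes were, and *Hey1* (-1.96) was lower, where 6.13% were. The E11.5 cluster was shallow, with a median of 1815.5 UMIs. Its own glia and neural crest markers, at 692 CPM, were below its mesenchymal markers at 796 CPM, and endothelial markers were at 384 CPM. At E14.5 the glia and neural crest markers were at 1697 CPM and the mesenchymal markers at 725 CPM. The part of RNA of other lineages in these values was not tested.

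**Figure D5:**
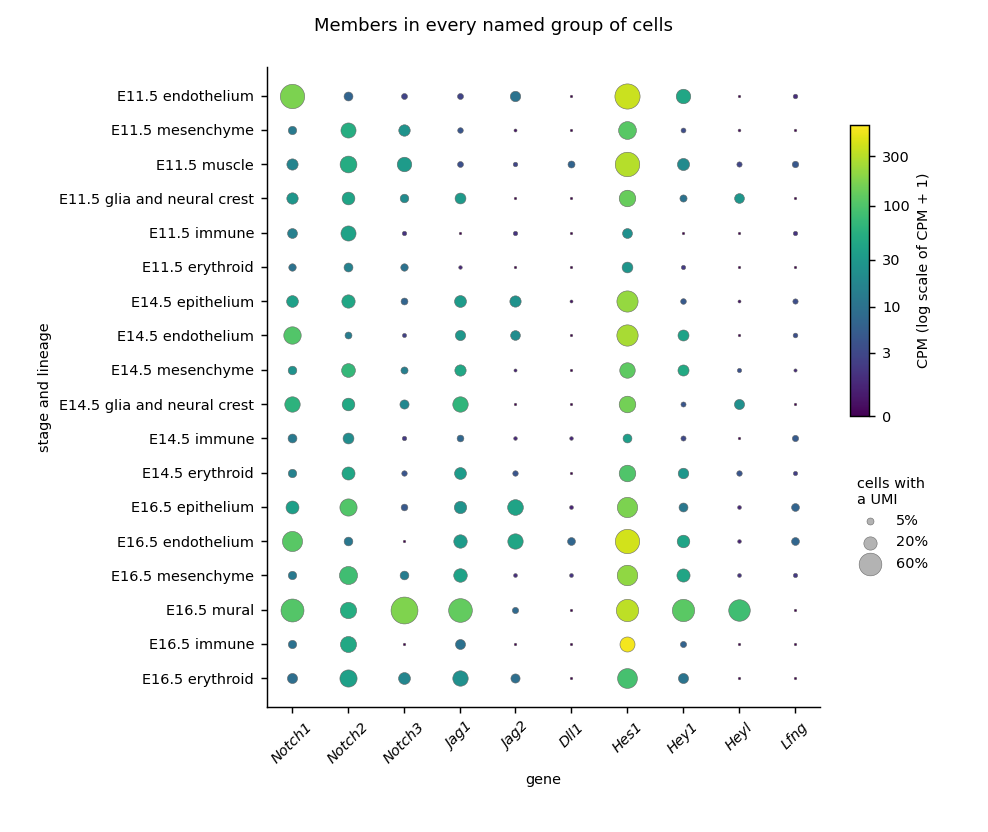
Level (colour, CPM on a log scale of CPM + 1) and share of cells with a UMI (dot area) of the 10 genes (x axis) in every named group of cells (y axis), without thinning. *Notch3* and *Heyl* were brightest in mural cells (171 and 83.7 CPM), *Jag2* in endothelium and epithelium, and *Dll1* was faint everywhere, at most 7.07 CPM.

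Ordered over the 16 groups of at least 40 cells, which leaves out the mural cells, E11.5 endothelium was clear of all 15 other groups for *Notch1*, and E16.5 and E14.5 endothelium came next with overlapping intervals. For *Notch2*, E16.5 epithelium was clear of the other 15, followed by E16.5 and E14.5 mesenchyme in turn. The leading groups overlapped for *Notch3* (muscle and mesenchyme of E11.5), *Jag1* (glia and mesenchyme of E14.5), *Jag2* (endothelium and epithelium of E16.5), *Dll1* (E16.5 endothelium and muscle), *Hes1* (endothelium of E16.5 and E11.5), *Hey1* (E14.5 mesenchyme and E11.5 endothelium), *Heyl* (glia of both stages) and *Lfng* (endothelium and epithelium of E16.5). The genes whose levels over these 16 groups were most like a member, by Pearson's r of log2(CPM + 10) among 5277 genes, were *Sema6d* (0.96), *Ptprm* (0.95) and *Shroom2* (0.95) for *Notch1*, *Rab34* (0.93), *Epha7* (0.92) and *Ssbp2* (0.91) for *Notch2*, and *Arhgef5* (0.91), *Nudt14* (0.89) and *Mbd2* (0.89) for *Jag2*. For *Heyl* they were *Adgrg6* (0.97), *Sox10* (0.96) and *Megf10* (0.96), and for *Hes1* *4921524J17Rik*, *Sept10* and *Bmpr2* (0.90 to 0.91). *Dll1* had the weakest likeness, to *Myf5* (0.63), *Foxl2* (0.63) and *Lhx2* (0.62). *Sox10* and *Myf5* were among the markers that named the glia and muscle groups, and *Heyl* in glia rested on 11 and 5 UMIs. Groups of a stage share a library and its free RNA, so the values of r are descriptions without a test.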

How the data were processed

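The single-cell UMI counts, 1 matrix of genes by barcodes per stage, were deposited by the authors as made with Cell Ranger 4.0.0 on mm10 per the submitters' processing notes, with no normalization. The matrices held 8708, 8192 and 5719 barcodes and 49264075, 31670249 and 42895059 UMIs, and no doublets had been removed from them as far as the sources used here say. After filtering as in the study's methods (at least 700 genes, at most 20% mitochondrial UMIs), each stage was normalized by SCTransform with Seurat 5.3.0 (sctransform 0.4.2, R 4.3.3) and clustered by Leiden (leidenbase 0.1.32, resolution 0.4) on 20 principal components of 2000 variable genes, without the 48 Notch genes and without integration of stages. Clusters, and sub-clusters of mixed clusters, took the name of the marker list with the highest score (at least 0.15, at least 3 markers detected). A cluster stayed unnamed if another list held more of its leading genes than the best-scoring list did. Shallow clusters with no marker of that list among their leading genes also stayed unnamed. This left 807 cells of E11.5 unnamed, though their clusters passed the score (0.207 and 0.257). Epithelial cells were clustered again in the same way.

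UMIs were summed over the cells of a group (python 3.11.15, numpy 2.4.6, pandas 2.3.3) and divided by the group's total. Group ratios used log2 of CPM + 10 on both sides, counted as called at 2-fold with at least 50 counts over both groups, and exact intervals came from scipy 1.17.1. Doublets were scored by Scrublet (scanpy 1.11.5) and kept, with their removal as an alternative. A floor of 3 counts stood for a count of 0. The ratios were tested on simulated counts with known folds. Artery-side cells had UMIs of more of the genes *Gja4*, *Gja5*, *Sox17*, *Bmx*, *Efnb2* and *Unc5b* than of the vein genes *Nr2f2*, *Aplnr*, *Ephb4* and *Nrp2*, and the levels of those genes between the sides are no result. Promoters and their letters came from RefSeq (GRCm38.p6) and gene positions from GENCODE vM21 (GRCm38), the build of mm10.

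The named genes were all 10 members and those of the 38 other pathway genes past 2-fold or beside a member. Members and lists were chosen with earlier results of these data known, and the naming rule, the splitting of mixed clusters and the division of endothelial cells were set after the data were seen. No statistical test across samples was made, because the 10 samples of the labels cannot be told apart within a matrix. All ratios over mesenchyme at a stage share the same mesenchymal cells. The genes most like *Notch3* are not reported here.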

Additional observations from a re-analysis of the deposited data

Results flagged for a closer look

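For *Notch2* and *Hes1* the ratio of epithelium over mesenchyme pointed in opposite directions at the stages E14.5 and E16.5. The log2 ratio of *Notch2* was -0.58 and then 0.31, and that of *Hes1* was 0.79 and then -0.24. The E16.5 ratio of *Notch2* was 0.14 with the mean of single-cell CPM. Outside the *Sparcl1* sub-cluster, E16.5 epithelium had less *Notch2* than mesenchyme. With 1 sample per stage the difference between the stages was not tested. Without globins, some of these levels were not above those of erythroid cells, as given in the results. The stages differed in the depth of both lineages (median UMIs per cell 4266 and 6729.5 in epithelium, 3250 and 5914 in mesenchyme), whose part in these values was not tested. With cells thinned to 2000 UMIs, a *Notch2* UMI was found in 9.19% of epithelial and 12.1% of mesenchymal cells at E14.5 and in 15.3% and 14.6% at E16.5, and a *Hes1* UMI in 31.5% and 17.2% at E14.5 and in 21.2% and 26.8% at E16.5.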

How the results depend on the processing

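No paired analysis was possible because cell barcodes do not tell which sample of a stage they came from, and for the same reason no replicate could be left out. Over 11 alternatives (other cell filters, Leiden resolutions, doublet removal, thinning, a marker gate on each cell, another pseudocount, no count minimum, other variable genes, the mean of single-cell CPM), 67 of 77 counts of called genes stayed within 1.5 times and 10 moved. The count of genes higher in E16.5 epithelium than in mesenchyme was 1 (*Jag2*) with at least 200 genes and no mitochondrial limit, with a stricter filter on genes and mitochondrial UMIs, at resolution 0.2, after thinning to 2000 UMIs and with the mean of single-cell CPM. In endothelium over mesenchyme the count was 1 (*Notch1*) at E14.5 with the same stricter filter or after removing the top 5% of doublet scores, and 1 (*Notch1*) at E16.5 after thinning. Between epithelial stages it was 0 with the mean of single-cell CPM and 2 (*Notch2*, *Hey1*) with 1 CPM added. Of 770 log2 ratios of single genes 139 moved. All 198 called ratios kept their sign, as did the 36 of 36 within epithelium and endothelium under alternatives chosen after the data were seen. A change of sign was looked for in called ratios only. Some ratios not called did change sign, such as *Jag1* in endothelium over mesenchyme at E11.5 (-0.21, and 0.54 at resolution 0.2). The causes of these shifts were not tested. Limits are the 1 pooled sample per stage, the few endothelial and mural cells, and, for *Dll1*, *Heyl* and *Lfng*, counts too low for most comparisons.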

Other observations

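Immune cells of E16.5 were listed with 536 CPM of *Hes1*, the highest of any whole lineage, on 27 cells. Of the 165 UMIs, 144 came from 1 cell, and without it the level was 74.1 CPM. The 3 immune cells with the most *Hes1* UMIs (144, 10 and 7) held 222, 88 and 154 UMIs of *Cpa3*, a protease of mast cells, and the next had 1 UMI of *Hes1* and 0 of *Cpa3*.

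A group of 93 mesenchymal cells of E14.5, led by *AY036118* and *mt-Nd6* and shallow at a median of 1466 UMIs, had 202 CPM of *Notch2*, against 52.3 to 99.3 CPM in the other mesenchymal clusters of that stage. Mesenchymal *Nr2f2* was 232 CPM at E11.5 and 4.76 CPM at E14.5, stages that also differed in the tissue dissected.

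The genes most like 3 further members over the 16 groups were *Selenom* (0.91), *Col5a2* (0.87) and *Creb3l2* (0.84) for *Jag1*, *Piezo2* (0.89), *Myo6* (0.89) and *Adamts9* (0.88) for *Hey1*, and *Arl4c* (0.85), *Ier5* (0.84) and *Cdkn1a* (0.77) for *Lfng*.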
